A study of Mus musculus with 12 samples.

Results

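The 77 genes described here encode proteins of the cytosolic ribosome. They were chosen by name and level: protein-coding rows with an Rpl or Rps symbol followed by a number, or Rplp0 to Rplp2, and a mean of at least 10 FPKM over the 12 libraries. FPKM is a fragment count scaled to gene length and to library size. Of 54532 rows in the deposited table, 82 protein-coding rows carried such a name and 77 of these passed the level. They comprised 44 large-subunit proteins, 30 small-subunit proteins and the 3 stalk proteins. The stalk is the part of the large subunit that recruits translation factors.

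The ribosome is assembled in the nucleolus from ribosomal RNA and one copy of nearly every ribosomal protein, so these genes are expressed together and at high level in dividing cells. Most of their mRNAs start with a run of pyrimidines, the TOP motif, through which mTOR signalling controls their translation. In cancer cells the supply of ribosomes is tied to MYC and to growth signalling, and some free ribosomal proteins bind MDM2 and restrain it from degrading p53.

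The 12 libraries came from a mouse melanoma line whose label gives an activated BRAF kinase. Polyadenylated RNA was sequenced in 4 groups of 3: a non-targeted control (NTC), cells labelled Gli2CA, a second non-targeted control with Cas9 (Cas9-NTC), and Cas9 cells labelled as a Gli2 knockout (Cas9-Gli2KO). Gli2 is a transcription factor of the Hedgehog pathway. All groups grew in DMEM with 10% serum and puromycin at 1 ug/mL, and both Cas9 groups also received blasticidin at 10 ug/mL. The labels do not say whether a group was 1 clone or a pool, or whether separate cultures were used for its libraries, so the p-values here reflect the spread between these libraries alone, which may be technical.

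Gli2 RNA did not follow the knockout label. It stood at 0.820, 0.894 and 2.14 FPKM in libraries labelled Gli2 knockout, against 0.249, 0.350 and 0.235 FPKM in Cas9-NTC. The mean was 4.61-fold higher, and the exact permutation test of 3 against 3 libraries gave its smallest possible p of 0.1. In NTC it was listed at 0 in every library, and Gli2CA had 1, 0 and 5 reads. These RNA levels do not show whether Gli2 protein was lost or active, which was not tested. Sox10, a transcription factor that defines the melanocyte lineage, averaged 188.5 FPKM in NTC and 162.3 in Gli2CA but 0.028 and 0.0046 in the Cas9 groups, and the pigment genes Dct and Mlana were at or near 0 throughout. Other melanocyte markers went their own way: Gpnmb was at 109 to 110 FPKM in Cas9-NTC and 10.01 to 11.3 in NTC, Mitf at 2.63 to 2.71 and 0.954 to 1.15, and Rab38 at 0.425 to 0.683 and 4.78 to 5.86. Of 10 leukocyte markers only Cd68 was tested. The list summed to 1.16 to 2.09 FPKM in NTC, 6.80 to 8.17 in Gli2CA, 9.21 to 9.58 in Cas9-NTC and 1.47 to 2.04 in the group labelled Gli2 knockout, nearly all of it Cd68, while Cd3e and Cd8a were at 0 and Ptprc did not exceed 0.042 FPKM. In bulk RNA, fewer cells of a type and less RNA per cell cannot be told apart.

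The family was among the most abundant mRNA classes in every library. Mean levels over the 12 libraries ran from 38.2 FPKM for Rpl22l1 to 2705 FPKM for the stalk protein gene Rplp1, with a median of 423 FPKM. The next highest were the stalk scaffold Rplp0 at 1816 FPKM and Rpl17, a protein of the exit tunnel, at 1687 FPKM. The 3 most abundant genes held 15.5% of the family's summed FPKM and the 10 most abundant held 35.3%. Of the 100 genes with the highest mean FPKM, 35 were ribosomal protein genes. Each gene rested on 595 to 127443 reads per library, so counting error was small.

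The gap below the family was wide. The lowest member was Rpl22l1, and the highest row left out by the level was Rps10 with 1.14 FPKM. Rpl24 stood at 0.479 FPKM, while the heart and skeletal muscle form Rpl3l had 24 reads over all libraries, the germline form Rpl10l had 1, and Rpl39l had 0. Rps10 and Rpl24 encode core proteins of the ribosome. How reads that also match processed copies were counted is not given in the sources used here: 297 rows carry the name of a ribosomal protein pseudogene, and 48 of them reached a mean of 1 FPKM. The largest was Rps3a3 at 599 FPKM, more than its parent gene Rps3a1 at 244 FPKM, so the level of Rps3a1 is uncertain. All named pseudogenes together equalled 2.49 to 3.23% of the family's sum in each library. Rpl35 and Rpl23a share 66.2% and 62.3% of their exonic length with other genes, which makes their levels uncertain as well.

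The starts of 8 genes are shown because they bracket the range of change described later. The first 4 rose in the group labelled Gli2 knockout, and the last 4 were among those whose group mean changed least there. The choice was made after their values had been seen. Single libraries could still depart, as Rpl39 did in library 3 at 0.652 times the Cas9-NTC mean. Each line is a stretch of 80 bases, from 60 before to 20 after the annotated start, on the coding strand. The sequences are from RefSeq, build GRCm38.p6, and capitals mark runs of at least 8 pyrimidines.
Rpl36a (chrX:134585594-134585673, plus strand): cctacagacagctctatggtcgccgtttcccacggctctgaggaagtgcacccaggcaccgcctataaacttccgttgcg
Rpl22l1 (chr3:28805448-28805527, plus strand): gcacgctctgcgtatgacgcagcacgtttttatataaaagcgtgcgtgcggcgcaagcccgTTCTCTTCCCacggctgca
Rpl35 (chr2:39005112-39005191, minus strand): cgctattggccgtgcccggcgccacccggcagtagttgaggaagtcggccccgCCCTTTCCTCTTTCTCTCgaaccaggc
Rpl38 (chr11:114668520-114668599, plus strand): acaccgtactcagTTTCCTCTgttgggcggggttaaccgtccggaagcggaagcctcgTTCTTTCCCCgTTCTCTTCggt
Rps26 (chr10:128626487-128626566, minus strand): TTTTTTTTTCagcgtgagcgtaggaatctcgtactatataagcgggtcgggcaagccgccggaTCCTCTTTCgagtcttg
Rpl28 (chr7:4792905-4792984, plus strand): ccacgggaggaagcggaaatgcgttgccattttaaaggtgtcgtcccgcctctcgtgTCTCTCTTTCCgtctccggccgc
Rpl39 (chrX:37085203-37085282, minus strand): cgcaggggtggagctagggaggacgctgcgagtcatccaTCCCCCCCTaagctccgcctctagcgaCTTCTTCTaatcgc
Rps4x (chrX:102189372-102189451, minus strand): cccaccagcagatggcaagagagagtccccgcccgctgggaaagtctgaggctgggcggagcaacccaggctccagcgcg

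Pyrimidine runs lay at the start of genes of both kinds. The RefSeq promoter table held 57 of the 77 genes. Within 50 bases of the annotated start, 47 of the 57 (82.5%) had a run of at least 8 pyrimidines on the coding strand, against 9650 of the 27025 genes in the table (35.7%). The letters CCGGAAG or their reverse complement CTTCCGG, which match the core that ETS factors bind, were found in 22 of the 57 windows of 300 bases (38.6%) and in 9.12% of all. GGGCGG or CCGCCC, the core of Sp1 sites, was in 61.4% and 35.9%, and TATAAA in the 50 bases before the start in 1 of the 57 and in 2.88%. The gene with TATAAA in those 50 bases was Rpl22l1, whose sequence is given above. In the Rpl36a sequence these letters lie just after the annotated start and were not counted. The median log2 change in the group labelled Gli2 knockout was 0.65 for the 47 genes with a pyrimidine run and 0.53 for the 10 without.

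Together the 77 genes held 9.42, 10.2 and 10.1% of the FPKM sum in NTC libraries 1, 2 and 3 and 8.72, 10.1 and 9.24% in Gli2CA. Cas9-NTC libraries had 11.96, 11.6 and 11.9%. In the group labelled Gli2 knockout the shares were 18.7 and 17.2% in libraries 1 and 2 and 11.9% in library 3. The first 2 of these lay above every other library, and library 3 lay within the range of Cas9-NTC. The large and small subunits kept a near-constant proportion, with the FPKM of large-subunit genes, stalk included, at 1.62 to 1.79 times that of small-subunit genes in all 12 libraries. Because the libraries labelled Gli2 knockout differ so much among themselves, they are described one by one.

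**Figure D1:**
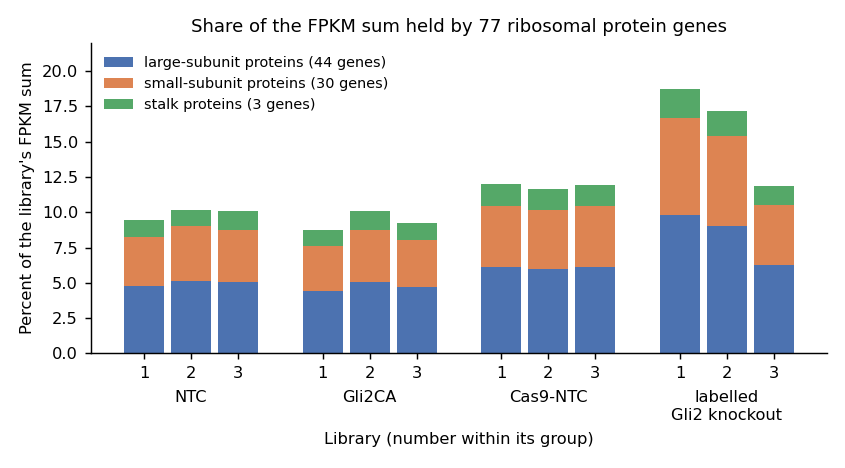
Bars give the percent of each library's FPKM sum held by large-subunit, small-subunit and stalk protein genes, for 3 libraries in each of 4 groups. Libraries 1 and 2 labelled Gli2 knockout stand at 18.7 and 17.2%, while library 3 stands at 11.9%, beside Cas9-NTC.

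In library 1 labelled Gli2 knockout, all 77 genes were above every Cas9-NTC library, and the median gene was at 2.15 times the Cas9-NTC mean. Ratios ran from 1.02 for Rps26, which contacts mRNA at the exit channel, to 4.12 for Rpl22l1, and 47 genes reached 2-fold. In library 2 the median ratio was 1.79, 76 genes were above every Cas9-NTC library and 21 reached 2-fold. In library 3 the median ratio was 0.944, with 16 genes above, 47 below and 14 within the range of Cas9-NTC, and none reached 2-fold. Among all 11860 genes tested, 42.8, 41.7 and 36.1% lay above every Cas9-NTC library in libraries 1, 2 and 3, and their median ratios were 0.967, 0.976 and 0.991.

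Other marker lists also differed between these libraries. The 13 genes encoded by mitochondrial DNA summed to 8497, 5809 and 3704 FPKM in libraries 1, 2 and 3 and to 3165 to 4591 FPKM in Cas9-NTC. The 6 fibroblast markers summed to 89.99, 122 and 242 FPKM against 227 to 239 FPKM, mostly Col3a1, with Lum at 0. Histone genes whose mRNAs lack a poly(A) tail had median ratios of 1.32, 1.03 and 0.602 to the Cas9-NTC mean. The Cas9-NTC libraries themselves had 1.13, 0.983 and 0.795, so library 2 lay inside the control range. Of 5 endothelial markers Cdh5 was at 6.17, 8.76 and 19.3 FPKM against 2.47 to 2.99 FPKM, and Kdr was at 0 in these 3 libraries. The leukocyte gene Cd68 was at 1.76, 1.47 and 1.96 FPKM against 9.06 to 9.47 FPKM. The part of these differences in the family's pattern was not tested.

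All 77 genes were higher in both libraries 1 and 2 than in library 3, and 73 were higher in library 1 than in library 2. How many of all genes tested had either order is not given. The coefficient of variation within the group had a median of 37.6% over the family, against 4.17% in Cas9-NTC, and over all genes tested these values were 23.8% and 6.03%. For 3 libraries of 1 label the family was therefore among the more variable genes. Median ratios to the group mean were 1.32, 1.09 and 0.585 in libraries 1, 2 and 3, so the mean describes libraries 1 and 3 poorly. Rps28 was 1 of 4 exceptions to the order, at 211, 255 and 180 FPKM in libraries 1, 2 and 3, and Rps29 was another, at 419, 586 and 403 FPKM. Rps28 and Rps29 encode small proteins of the small subunit.

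**Figure D2:**
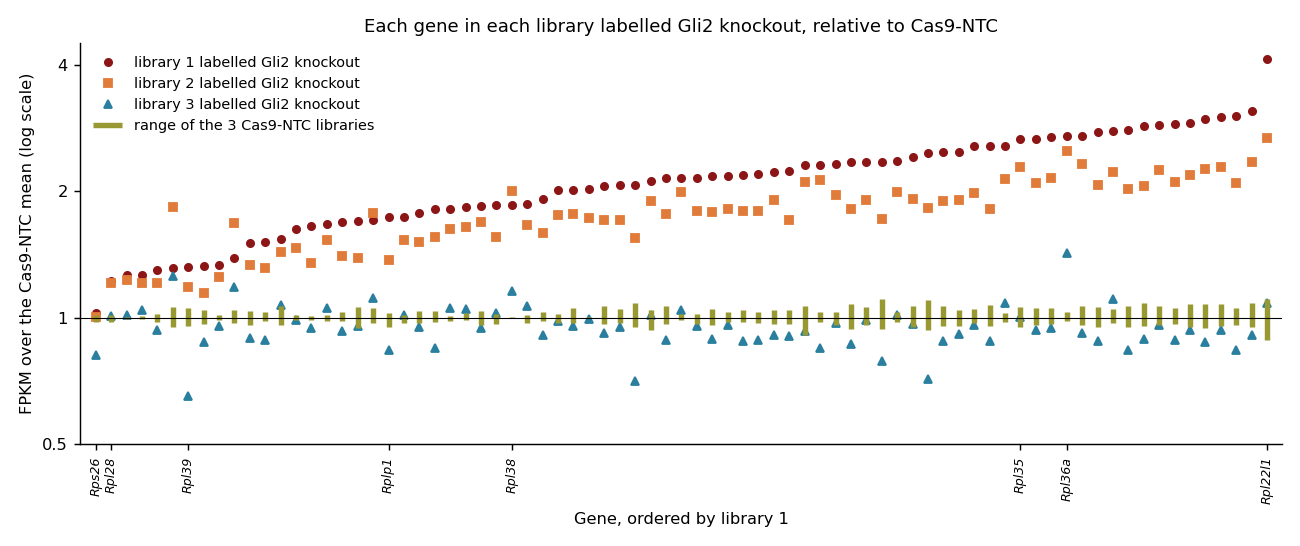
Each point is 1 gene in 1 library labelled Gli2 knockout, as FPKM over the Cas9-NTC mean on a log axis, with genes ordered by library 1 and vertical bars for the range of the 3 Cas9-NTC libraries. Library 1 runs from 1.02 for Rps26 to 4.12 for Rpl22l1, while library 3 stays close to 1, with Rpl39 lowest at 0.652 and Rpl36a highest at 1.42.

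The comparison of the group labelled Gli2 knockout with Cas9-NTC was designed to show what the loss of Gli2 changes. In limma's test with Benjamini-Hochberg adjustment over all genes, 14 of the 77 genes rose (18.2%), none fell and 63 did not pass, while 11.2% of all genes tested were called higher and 15.7% lower. Those that rose included Rpl7a, Rpl10, Rpl13, Rpl18, Rpl22l1, Rpl35, Rpl36, Rpl36a, Rpl37, Rpl37a, Rpl38, Rps16 and Rps23. The median log2(FPKM + 1) change was 0.59 over the family and -0.01 over all genes tested, and 60 of the 77 had an unadjusted p under 0.05. The libraries did not overlap between groups for 16 of the 77, all higher, where 15.5% of all genes were higher without overlap and 19.4% lower. Without library 3 labelled Gli2 knockout 73 genes were called higher, and without library 1, without library 2 or without any 1 of the Cas9-NTC libraries only Rpl36a was. With these groups fitted alone 0 were called. Shares of all genes called in these alternative fits are not given, so their counts cannot be set against other genes.

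Rpl36a, a large-subunit protein near the tRNA exit site, was the gene that stood above Cas9-NTC in all 3 libraries by the widest margin. It was at 370, 341 and 194 FPKM in the libraries labelled Gli2 knockout and at 134, 135 and 141 FPKM in Cas9-NTC. The groups did not overlap, and library 3, at 1.42 times the Cas9-NTC mean, was the lowest of the group. The log2 change was 1.08 with a standard error of 0.20 and an adjusted p of 0.00372 by limma. In 22 of 23 alternative fits the call held, with adjusted p from 1.4e-06 to 0.065. Its levels in NTC were 181, 149 and 185 FPKM and in Gli2CA 183, 208 and 201 FPKM, so Cas9-NTC was the group with the lowest level.

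Rpl22l1 had the largest rise. This paralogue of Rpl22, a protein that binds RNA and is dispensable for general translation, was at 117 and 76.1 FPKM in libraries 1 and 2 and at 30.7 FPKM in library 3. Cas9-NTC stood at 28.5, 25.1 and 31.5 FPKM, so library 3 lay inside the control range. The log2 change was 1.17 with a standard error of 0.37 and an adjusted p of 0.0382 by limma. Rpl22 itself was at 203, 167 and 83.4 FPKM against 97.97, 92.75 and 90.01 FPKM, with an adjusted p of 0.0961 by limma. The level of Rpl22l1 was 57.6, 45.6 and 36.8% of that of Rpl22 in these libraries and 29.1, 27.1 and 35.02% in Cas9-NTC. All 3 shares are above those of Cas9-NTC, library 3 by little.

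The other paralogue pairs went different ways. Rps27l, which is known as a p53 target, was at 93.1, 82.3 and 70.4% of Rps27 in the libraries labelled Gli2 knockout and at 71.0, 66.4 and 68.6% in Cas9-NTC. Rpl7l1, which is known mainly as a factor of ribosome assembly, was at 11.6, 12.4 and 14.9% of Rpl7 there and at 15.2, 15.6 and 17.0% in Cas9-NTC. None of Rps27l, Rps27, Rpl7l1 and Rpl7 passed the test in this comparison. Rps4l, a second form of Rps4x, was at or near 0 in every library.

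Among the other genes that rose, Rpl35 was at 867.9 and 743.6 FPKM in libraries 1 and 2 and at 328 FPKM in library 3, against 346, 321 and 311 FPKM in Cas9-NTC. Rpl35 lies near the tunnel exit, and its library 3 fell inside the control range. Rpl38, which in mice is required for normal axial patterning through the translation of Hox mRNAs, was at 861, 931 and 537 FPKM against 461, 465 and 464 FPKM. All 3 libraries labelled Gli2 knockout were above Cas9-NTC for Rpl38, with a log2 change of 0.70, a standard error of 0.20 and an adjusted p of 0.0277 by limma. Rpl10, one of the last proteins to join the large subunit, was at 948, 851 and 541 FPKM against 530, 510 and 509 FPKM. Its groups did not overlap either, with an adjusted p of 0.0387 by limma. Rps16 and Rpl36 had log2 changes of 0.75 and 0.93.

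Genes with named roles outside the ribosome's core followed the library pattern without passing the test. Rpl5, which with Rpl11 and 5S ribosomal RNA binds MDM2, was at 797, 599 and 256 FPKM in the libraries labelled Gli2 knockout and 295, 267 and 261 FPKM in Cas9-NTC, with an adjusted p of 0.0628 by limma. Rpl11 was at 403, 336 and 177 FPKM against 184, 181 and 190 FPKM, with an adjusted p of 0.0645. For both, libraries 1 and 2 were high and library 3 was just below the controls. Rps6, the substrate of S6 kinase, had ratios of 1.85, 1.69 and 0.944 to the Cas9-NTC mean. Rps19, mutated in Diamond-Blackfan anaemia in humans, had 2.49, 1.91 and 0.913. Rps3, which also acts in DNA repair, had 2.67, 2.09 and 0.936, and Rpl13a, which in humans silences inflammatory mRNAs, had 2.08, 1.55 and 0.706. Rps27a is made as a fusion with ubiquitin and had 965, 693 and 300 FPKM against 364, 325 and 322 FPKM.

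The stalk genes moved less than most. Rplp1 was at 4598, 3627 and 2220 FPKM in the libraries labelled Gli2 knockout and at 2718, 2512 and 2719 FPKM in Cas9-NTC. Rplp0 had ratios of 1.81, 1.56 and 0.848, and Rplp2 had 1.70, 1.38 and 0.955. Adjusted p-values by limma were 0.27, 0.17 and 0.115 for Rplp1, Rplp0 and Rplp2, so none of the 3 passed.

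A few genes were closer to the control level than most in libraries 1 and 2 and were chosen after their values had been seen. Rps26 was at 656, 643 and 522 FPKM in the libraries labelled Gli2 knockout and at 646, 649 and 627 FPKM in Cas9-NTC. Libraries 1 and 2 were within or just above the control range, library 3 was below it, and the log2 change was -0.09 with an adjusted p of 0.536 by limma. Rpl39, a small protein of the exit tunnel, was at 252, 226 and 124 FPKM against 201, 183 and 189 FPKM. For Rpl39 libraries 1 and 2 were above every control and library 3 below every one, and the log2 change was 0.01. Rpl28 was at 371, 367 and 306 FPKM against 297, 306 and 308 FPKM, and Rps4x, whose gene is X-linked, was at 752, 735 and 605 FPKM against 599, 592 and 599 FPKM.

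**Figure D3:**
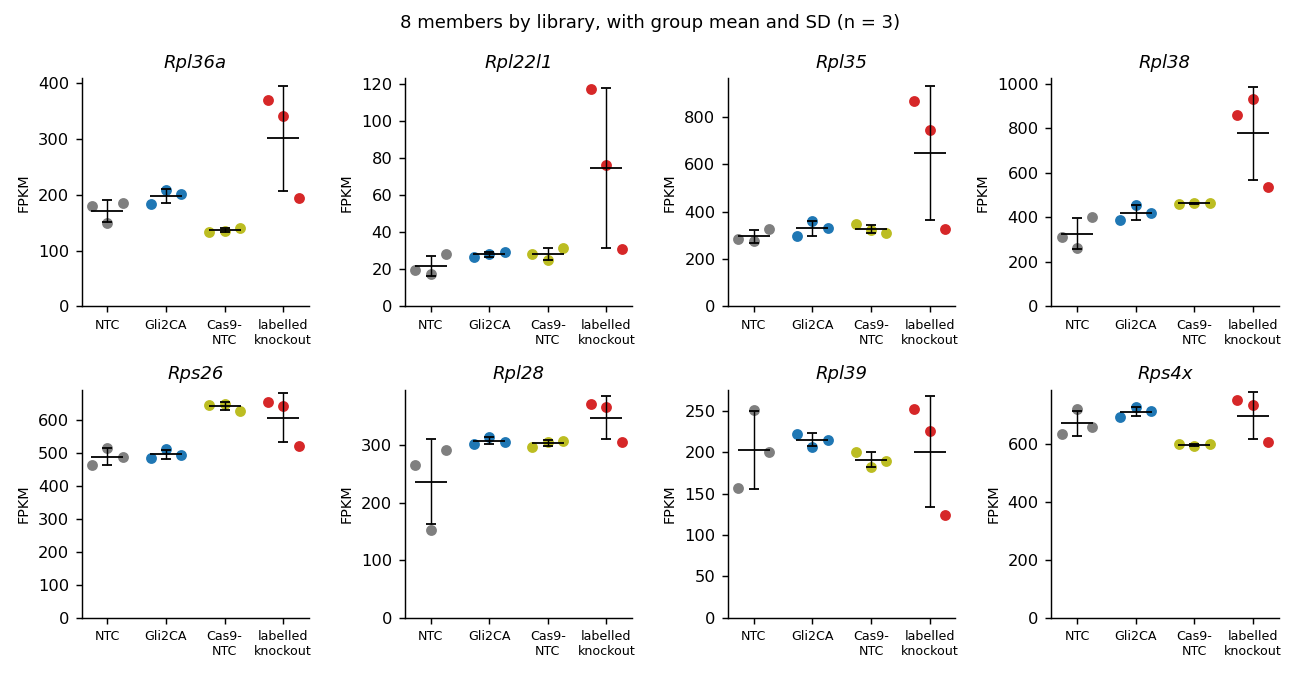
Points are FPKM in each library and bars the group mean and SD (n = 3). The upper row holds 4 genes that rose in the group labelled Gli2 knockout, and the lower row 4 whose group mean changed little. Rpl36a and Rpl38 are above Cas9-NTC in all 3 libraries, while Rpl22l1 and Rpl35 return to the control range in library 3.

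The makeup of the pool changed for a handful of genes. With every library centred on the median of the 77 genes, Rpl36a rose by 0.45 on the log2 scale (adjusted p = 0.0297 by limma). In the same fit Rps26, Rpl39, Rps2 and Rplp1 were among those that fell relative to the family, by 0.72, 0.62, 0.45 and 0.30, with adjusted p from 0.0225 to 0.0445. Over all 12 libraries the shares of the pool that varied most were those of Rpl30, Rpl39 and Rpl22l1, with SDs of 0.43, 0.40 and 0.38 on the log2 scale. The steadiest were Rpl10a, Rps3a1 and Rpl15, at 0.06, 0.07 and 0.07. Rpl10a held 0.866, 0.85, 0.83 and 0.912% of the pool on average in NTC, Gli2CA, Cas9-NTC and the group labelled Gli2 knockout.

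Differences by gene length appeared in the same libraries. Ribosomal protein genes are short, with a median exonic length of 1781 bases against 4196.5 for the genes tested. Exonic length here joins the exons of all isoforms, so the mRNAs can be shorter. Among genes outside the family of at most 1000 bases, the median log2 difference from the Cas9-NTC mean was 0.59, 0.45 and -0.02 in libraries 1, 2 and 3. Among those over 6000 bases it was -0.32, -0.24 and 0.05. The 11 family members of at most 1000 bases had 1.11, 0.87 and -0.08, and the 32 members of 1000 to 2000 bases had 1.06, 0.82 and -0.02. In every length bin the members' median exceeded that of other genes in libraries 1 and 2. With the length trend removed from each library, 31 of the 77 genes were called higher and 1 lower. The share of all genes called in that fit is not given, so this count cannot be set against other genes. The part of RNA quality or library preparation in this pattern was not tested.

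**Figure D4:**
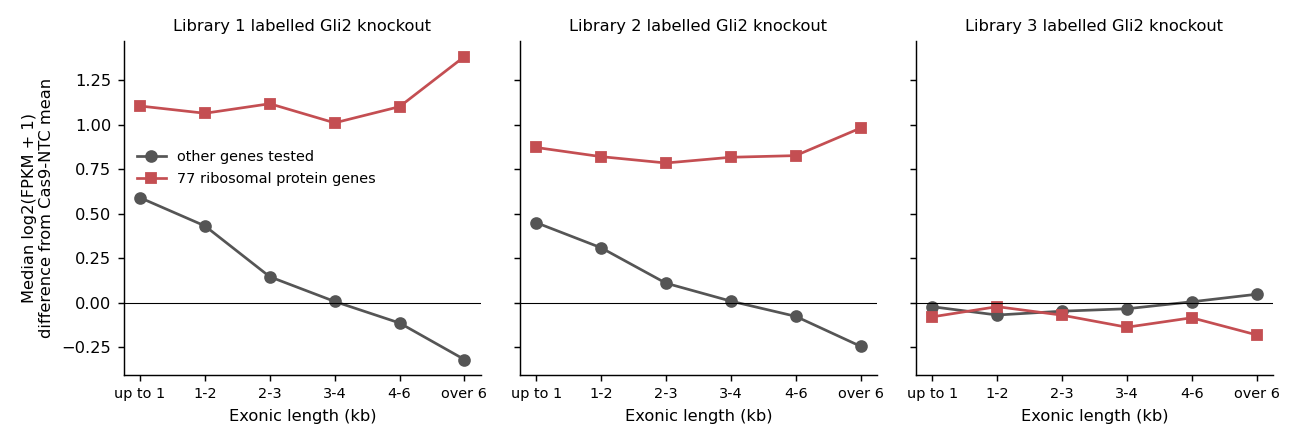
Points are the median log2(FPKM + 1) difference from the Cas9-NTC mean in bins of exonic length, for family members and for other genes tested, in each library labelled Gli2 knockout. In libraries 1 and 2 other genes run from 0.59 and 0.45 in the shortest bin to -0.32 and -0.24 in the longest, and members lie above them in every bin. In library 3 both sets stay near 0.

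Other genes of the ribosome and of translation were taken from lists by role. Among ribosomal proteins with other names Fau, Rack1 and Rpsa did not pass. Fau was at 1542, 1219 and 572 FPKM in the libraries labelled Gli2 knockout and in Cas9-NTC at 678, 622 and 629 FPKM. In the group labelled Gli2 knockout against Cas9-NTC, 11.2% of all genes tested were called higher and 15.7% lower. Of 41 ribosome biogenesis genes 7 rose and 1 fell, with a median log2 change of -0.04. Nop10, a protein of the H/ACA particles that modify ribosomal RNA, rose by 0.92. That list had median ratios of 0.899, 0.924 and 1.05 in libraries 1, 2 and 3, against 0.967, 0.988 and 1.04 in Cas9-NTC. The median of this list ran the other way round from the ribosomal proteins, and the list was mixed. In libraries 1, 2 and 3, 16, 16 and 20 of its genes were above every Cas9-NTC library, and 22, 19 and 10 below. Its summed FPKM was highest in library 1 and lowest in library 3, the same order as for the ribosomal proteins. Host genes of small nucleolar RNAs, many of which are TOP transcripts, had ratios of 2.22, 2.08 and 1.13, and 4 of 7 rose, Snhg1 by 1.02 and Snhg8 by 0.77.

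The other TOP mRNAs split. Of 17 genes for translation factors and related proteins none rose and 3 fell, and the median log2 change was 0.31. Over all genes tested 11.2% were called higher and 15.7% lower. Pabpc1, the poly(A)-binding protein, was at 115, 141 and 249 FPKM in the libraries labelled Gli2 knockout and at 285, 301 and 303 FPKM in Cas9-NTC. The elongation factor Eef2 was at 363, 445 and 853 FPKM against 840, 916 and 928 FPKM, and Eif4b fell by 0.55 on the log2 scale. Eef1b2 and Naca, in contrast, had ratios of 2.21, 1.78 and 0.931 and of 2.20, 1.82 and 0.894, without passing the test. Exonic lengths were 3324, 4468 and 6540 bases for Eef2, Eif4b and Pabpc1, and 2532 and 6805 bases for Eef1b2 and Naca. The part of length in this split was not tested.

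Mitochondrial genes showed the same library pattern. For comparison, 11.2% of all genes tested were called higher in the group labelled Gli2 knockout and 15.7% lower. Of 77 mitochondrial ribosomal proteins 21 rose and none fell, with a median log2 change of 0.46 and median ratios of 1.85, 1.54 and 0.981 in libraries 1, 2 and 3. Of 74 nuclear genes of oxidative phosphorylation 32 rose and none fell, with a median of 0.68 and ratios of 2.21, 1.84 and 1.03. Mrpl41 was at 110, 76.6 and 33.6 FPKM against 28.9, 32.5 and 27.8 FPKM. Regulators of translation and growth did not share that pattern: of 18 genes 1 rose and 3 fell, with a median log2 change of -0.26. Their median ratios were 0.726, 0.697 and 1.04 in libraries 1, 2 and 3. Among them Myc fell by 0.52 and Rptor, the mTORC1 subunit, by 0.67, while the cap-binding Eif4e rose by 0.52. Of 10 genes of the p53 axis Cdkn1a fell by 0.63 and Mdm4 rose by 0.49.

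Gli2CA against NTC was designed to show what an active Gli2 mutation changes. None of the 77 genes rose or fell in limma's test, where 8.45% of all genes tested were called higher and 5.76% lower. At an unadjusted p under 0.05 there was 1 gene, Rps28. Of the alternative fits, voom on recovered reads called 0, while library weights called 15 higher, and shares of all genes called there are not given. The median log2 change was 0.09 over the family and 0.00 over all genes tested, with a range from -0.15 for Rps6 to 0.50 for Rps28. Rps28 was at 132, 150 and 140 FPKM in Gli2CA and at 103, 70.2 and 134 FPKM in NTC, with groups that overlap and an adjusted p of 0.129 by limma. The groups did not overlap for 5 genes that were higher and 1 that was lower, where 23.3% and 20.4% of all genes did not overlap.

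NTC library 2 departed from libraries 1 and 3 for single genes rather than for the family. It was above both for 33 genes and below both for 28. Rpl23a was at 219 FPKM there and at 481 and 501 FPKM in the others, and Rpl28 was at 152 FPKM against 266 and 291 FPKM. Rpl39 went the other way, at 251 FPKM against 157 and 200 FPKM. In Gli2CA, library 2 was the highest for 74 of the 77 genes, at a median of 1.07 times the group mean. The share of all genes tested that were highest there is not given. Of 41 ribosome biogenesis genes 4 fell in Gli2CA and none rose, where 5.76% of all genes tested were called lower and 8.45% higher. Dkc1, the pseudouridine synthase of ribosomal RNA, fell by 0.62, and Ltv1, a small-subunit export factor, by 0.54.

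When the change in the group labelled Gli2 knockout was subtracted from that in Gli2CA, 1 gene was called, Rpl36a, at -0.88 with a standard error of 0.28 and an adjusted p of 0.0397 by limma. Over all genes tested 16.7% of these differences were called higher and 11.6% lower. The family's median difference was -0.57 against 0.01 over all genes tested. Without library 3 labelled Gli2 knockout 69 genes were called, all negative, and the share of all genes called in that fit is not given. Of the 11 fits that left out another library 10 called none and the fit without NTC library 2 called Rpl36a.

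Cas9-NTC and NTC are both controls, and the contrast shows how far these groups differ without a targeted Gli2 change. In Cas9-NTC 10 of the 77 genes were higher (13.0%) and none lower, below the 24% and 24.9% over all genes tested. The genes were Rpl4, Rpl7l1, Rpl8, Rpl21, Rpl29, Rpl30, Rpl37, Rpl38, Rps26 and Rps28, and the family's median log2 change was 0.19 against 0.02 over all genes. For 38 genes the groups did not overlap with Cas9-NTC higher and for 3 with it lower, where the shares of all genes were 34.5% and 34.9%. Without library 3 labelled Gli2 knockout, whose spread enters the shared error, 28 were called higher and 2 lower. Shares of all genes called in that fit are not given. Blasticidin, Cas9, the near absence of Sox10 RNA and any difference in clone or origin go together in this contrast and cannot be told apart.

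The 3 largest changes were on chromosome 15, as annotated in GENCODE M21 on GRCm38. Rpl30 (chr15:34440505-34443640, minus strand), whose protein helps decode selenocysteine in mammals, was at 220, 219 and 229 FPKM in Cas9-NTC and at 91.2, 102 and 102 FPKM in NTC, a ratio of 2.26 with an adjusted p of 8.28e-05 by limma. The groups lay far apart and each was tight. Rpl8 (chr15:76904078-76906314, plus strand), close to the peptidyl transferase centre, was at 1309, 1260 and 1318 FPKM against 673, 689 and 752 FPKM, a ratio of 1.84. Rpl37 (chr15:5116645-5119140, plus strand) was at 262, 259 and 281 FPKM against 133, 185 and 166 FPKM, a ratio of 1.66. All 3 held in 23 of 23 alternative fits.

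Rpl3 (chr15:80077791-80091868, minus strand), a core protein of the large subunit, is the other member on that chromosome. It was at 542, 501 and 499 FPKM against 396, 473 and 428 FPKM, with a ratio of 1.19 and an adjusted p of 0.377 by limma. The median log2 change was 0.81 for these 4 genes and 0.16 for the other 73. Over all 482 genes tested on chromosome 15 it was 0.58, with 61.4% called higher, and over genes elsewhere it was 0.00, with 22.4% called higher. Within 2 Mb of Rpl30, 15 of 18 tested neighbours were higher with a median of 1.10, and within 2 Mb of Rpl8, 46 of 63 were, with a median of 0.64. Around Rpl37 the median was 0.20, with 5 of 13 called higher, and around Rpl3 it was 0.66, above the value of Rpl3 itself at 0.25.

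**Figure D5:**
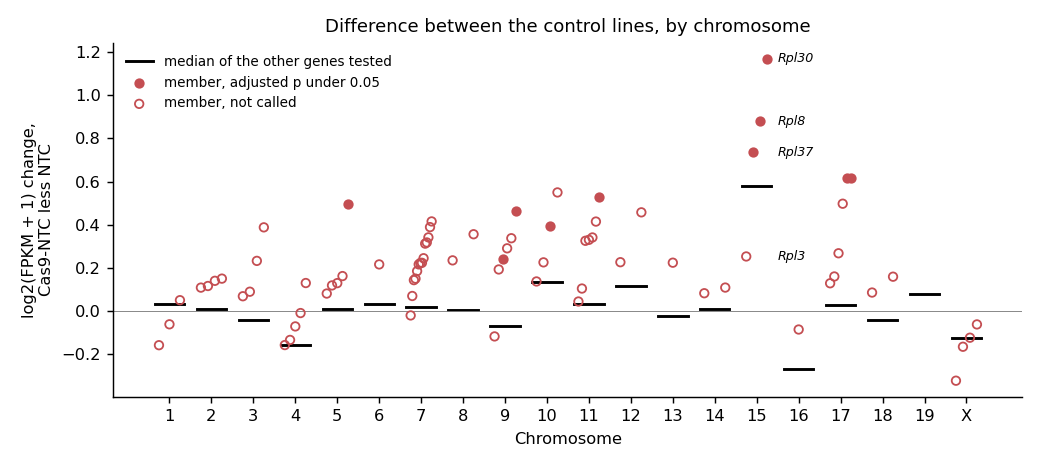
Points are the log2(FPKM + 1) change from NTC to Cas9-NTC for each member, by chromosome, filled where the adjusted p was under 0.05, and bars are the median of the other genes tested on that chromosome. Chromosome 15 stands highest, with Rpl30, Rpl8 and Rpl37 above its median and Rpl3 below.

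Relative to the NTC mean, these 4 genes had a median log2 difference of 0.80, 0.77 and 0.86 in Cas9-NTC. Libraries 1, 2 and 3 labelled Gli2 knockout had 1.59, 1.53 and 0.90. For the other 73 genes the Cas9-NTC values were 0.25, 0.14 and 0.15. Their values in the libraries labelled Gli2 knockout were 1.28, 1.02 and 0.083. In Gli2CA the value for the 4 genes was -0.06, 0.08 and -0.01. Rpl30 held 0.31% of the pool in NTC, 0.322% in Gli2CA, 0.602% in Cas9-NTC and 0.489% in the group labelled Gli2 knockout.

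Off chromosome 15 the largest rises among the 77 genes were Rps28 and Rpl7l1, at ratios of 1.49 and 1.54. Rpl7l1 was at 70.6, 67.8 and 73.1 FPKM in Cas9-NTC and at 45.76, 44.05 and 47.12 FPKM in NTC, with an adjusted p of 0.00584 by limma. Neighbours of Rpl7l1 within 2 Mb had a median log2 change of 0.05 and those of Rps28 one of 0.08. The list genes named next were not separated by chromosome, and among them Bop1 and Myc lie on chromosome 15. Of 41 ribosome biogenesis genes 20 rose and 1 fell in Cas9-NTC, with a median of 0.35. Over all genes tested 24% were called higher and 24.9% lower. Bop1, a scaffold of large-subunit assembly, rose by 0.96 and the nucleolar protein Ncl by 0.93. Myc rose by 0.99, from 8.37, 9.34 and 8.98 FPKM in NTC to 19.2, 17.5 and 19.2 FPKM in Cas9-NTC. Rps4x and Rpl36a had log2 changes of -0.17 and -0.32 that did not pass, and with these groups fitted alone both were called lower.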

How the data were processed

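The authors deposited FPKM values for 54532 Ensembl IDs in 12 libraries, as a single table. Per the labels' protocols, mRNA was captured on poly-T beads and libraries were made with a NEBNext kit. Aligner, counter, annotation, build and use of strand: not given in the sources used here. Symbols, coordinates and lengths were taken from GENCODE M21 (GRCm38), which held 54495 of the IDs. With those lengths, 97.8 to 98.4% of values of 20 reads or fewer came out whole within 0.02 of a read, which gave 15972800 to 25983200 reads per library, and 28400 rows were at 0 throughout.

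The 11860 genes that reached 1 FPKM in 3 or more libraries, all 77 members among them, were tested on log2(FPKM + 1) with limma 3.58.1 in R 4.3.3, trended, with 4 groups in 1 fit and 8 residual degrees of freedom. Calls had a 2-sided Benjamini-Hochberg adjusted p under 0.05 over all genes. This scale understates changes of low genes, and ratios are of mean FPKM. The procedure was tested on simulated data. Tables and plots were made in Python 3.11.15 (pandas 2.3.3, numpy 2.4.6, matplotlib 3.10.9). Members and gene lists were chosen with earlier results of these data known. Named genes were those with fixed roles, paralogue pairs, the 6 largest called rises and falls per comparison, and the 3 highest, lowest, most and least variable in the pool, and others are said to have been chosen after their values were seen or illustrate a list. Alternatives were other pseudocounts, filters, scalings, errors, voom on recovered reads, a replicate block and leaving out each library. Some items, among them part of the line's genotype and a few genes, are not reported here.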

Additional observations from a re-analysis of the deposited data

Results flagged for a closer look

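Rpl36a was the one ribosomal protein gene whose change differed between the 2 experiments by a test of the difference itself: its response to Gli2CA minus its response in the group labelled Gli2 knockout was -0.88 on the log2 scale, with a standard error of 0.28 and an adjusted p of 0.0397 by limma. The levels behind it were 172 ± 19.5 FPKM in NTC, 197.6 ± 12.7 in Gli2CA, 136.5 ± 3.61 in Cas9-NTC and 301.7 ± 94.0 in the group labelled Gli2 knockout (SD, n = 3 each). The call held in 9 of 22 alternative fits, with adjusted p from 1.9e-05 to 0.19. It was lost with no filter on low values, when centred on the members' median, with the replicate block and without any 1 of 10 libraries.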

How the results depend on the processing

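For the group labelled Gli2 knockout against Cas9-NTC, the 14 genes called higher became 1 with no filter on low values, 22 after rescaling to a common FPKM sum, 25 with quantile normalisation, 1 when centred on the members' median, 31 with the length trend removed, 0 with the groups compared alone, 71 with library weights and 33 with voom on recovered reads. Genes called lower went from 0 to 1 with rescaling, quantile normalisation or the length trend removed and to 5 when centred on the members' median. That centring subtracts the family's own shift, so 43 of the 77 changes turned negative by construction, among them Rpl10 at -0.078, Rpl37 at -0.048, Rpl39 at -0.62 and Rplp1 at -0.30. For Gli2CA against NTC, library weights called 15 higher, rescaling 1 lower and quantile normalisation 2 lower. For Cas9-NTC against NTC, the 10 called higher became 6 with no filter, 18 with rescaling, 25 with quantile normalisation, 6 when centred on the members' median, 32 with the groups compared alone, 49 with library weights and 16 with voom, and 2, 1, 2 and 2 were called lower when centred, with the length trend removed, with the groups alone and with library weights. For the difference of the changes, the 1 called lower became 0 with no filter, 10 with rescaling, 13 with quantile normalisation, 0 when centred, 8 with the length trend removed, 67 with library weights and 5 with voom. The causes were not tested. Shares of all genes called in the alternative fits of this section are not given, so the counts describe the family alone. Leaving out 1 library at a time gave 1 to 73 genes called higher in the group labelled Gli2 knockout, 0 to 2 higher in Gli2CA, 6 to 28 higher and 0 to 2 lower in Cas9-NTC, and 0 to 69 lower for the difference of the changes. The share of the family among nuclear protein-coding genes only was 10.7, 10.3 and 12.9% in NTC, Gli2CA and Cas9-NTC. Rescaling to a common sum moved the median of all genes by -0.13 in Gli2CA and by -0.13 in the group labelled Gli2 knockout.

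Same-numbered libraries of different groups had correlations of their deviations from -0.37 to 0.25, so the numbers were not taken as pairs. With the replicate block, 7 genes were called higher in the group labelled Gli2 knockout, 8 in Cas9-NTC, 0 in Gli2CA and 0 for the difference of the changes. The 4 comparisons share libraries and 1 error, so a noisy library touches the calls of all. Each gene rested on at least 595 reads per library, so counting error was small.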
